A study of Mus musculus with 14 samples.

Results

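The HOX genes of the mouse are 39 protein-coding genes in 4 chromosomal clusters, and they were followed here in ATDC5 cells by the peaks of 2 ChIP antibodies. Members were all protein-coding genes whose symbol is Hoxa, Hoxb, Hoxc or Hoxd and a number. The rule found 39 of the 21887 protein-coding genes on assembled chromosomes: 11 in HOXA on chromosome 6, 10 in HOXB on chromosome 11, 9 in HOXC on chromosome 15 and 9 in HOXD on chromosome 2. ATDC5 is a chondrogenic mouse line that the labels trace to the AT805 teratocarcinoma. The series addressed RUNX2 in maturing chondrocytes. Cells were plated as dense droplets and given β-glycerophosphate and ascorbate-2-phosphate, and chromatin was taken on days 0, 3 and 10. The labels name no genetic change or other agent, so the day of culture is the contrast. Each of the 3 days has 2 H3K4me3 libraries and 2 RUNX2 libraries, 12 in all. Whether same-day libraries stem from separate cultures is not in the labels, and any p-value here measures only their spread, which may be technical.

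HOX genes encode homeodomain transcription factors that assign position along the body axis and the limb, and posterior HOXA and HOXD genes pattern the cartilage models of limb bones. Within a cluster, paralog group 1 lies at the anterior-acting end and group 13 at the posterior-acting end, and the order of the genes matches the order of their expression domains in the embryo. H3K4me3, trimethylation of histone H3 at lysine 4, is laid down by Trithorax-group complexes at active or poised promoters, while Polycomb complexes keep HOX genes silent. RUNX2 is a runt-domain transcription factor needed for chondrocyte hypertrophy and for osteoblasts.

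The values are the authors' peak intervals, called library by library, with no read counts, so sequencing depth is unknown and all widths depend on what each library allowed to be called. The term marked is used of a gene whose span, extended by 1 kb on each side, met a peak in both same-day libraries. Among H3K4me3 lists, replicate 1 of day 0 (13765 peaks) and replicate 1 of day 10 (15219 peaks) stood apart from the other 4, which had 20863 to 29022. Their shortest peaks measured 295 and 245 bp, and those of the other lists 214 to 225 bp. For RUNX2 there were 19319 and 16859 peaks on day 3, and 97 to 108 in each list of days 0 and 10. Of 10 chondrocyte markers, H3K4me3 marked 5, 10 and 10 in day order, with Sox9 and Col2a1 marked throughout. None of 4 skeletal muscle markers had a peak in any library. Of 4 blood markers, 0 were marked on day 0, 3 on day 3 and 1 on day 10. In day order, 2, 2 and 3 of 5 osteoblast markers were marked, and 1, 2 and 1 of 4 neuron markers. For pluripotent cells it was 1 of 4 markers on each day, and for epithelium 0, 1 and 1 of 4. The shares over all protein-coding genes were 52.2%, 61.6% and 56.8%. In bulk chromatin, a mark in more cells and more of the mark per cell cannot be told apart.

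In each cluster, H3K4me3 was found in all 6 libraries at central genes (groups 4 to 8), in HOXD at Hoxd8 alone. The same held for the posterior genes Hoxa10, Hoxb9, Hoxc9, Hoxc10 and Hoxd9, and the calls at other posterior genes varied between days and libraries. Among central genes, Hoxc8 lacked a peak in replicate 1 of day 0, and Hoxd4 was marked on no day. On day 0, 23 of 39 HOX genes were marked, against 52.2% of all protein-coding genes. On day 3, 34 of 39 were marked (61.6% of all genes), and on day 10, 28 of 39 (56.8% of all genes). The same 23 genes marked on day 0 had a peak in all 6 libraries (51.9% of all genes). Of the 16 posterior genes of groups 9 to 13, 5 were marked on day 0, 15 on day 3 and 9 on day 10. Of the 15 central genes of groups 4 to 8, 13, 14 and 14 were marked on days 0, 3 and 10. The 8 anterior genes of groups 1 to 3 had 5 marked on each day. The genes marked on day 3 and not on day 0 were Hoxa9, Hoxa11, Hoxa13, Hoxb13, Hoxc8, Hoxc11, Hoxc12, Hoxc13, Hoxd10, Hoxd11 and Hoxd13.

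The lower count of day 0 rests on its replicate 1. It had 23 HOX genes with a peak (52.4% of all genes), whereas replicate 2 of day 0 had 35 (59.4%), close to the 38 and 34 of the day 3 libraries (64.2% and 63.2%). Replicate 1 of day 10 had 28 (56.9%) and replicate 2 had 37 (64.3%). Every one of the 11 genes named above had a peak in replicate 2 of day 0, though at Hoxb13 not in a region of its day 3 peaks. By the rule that a gene gains the mark when both later libraries and neither earlier one have a peak, 0 of the 4 HOX genes that could gain it did so on day 3 against day 0, beside 7.92% of all genes that could. Without replicate 2 of day 0 the count was 11, and without replicate 1 of day 0 it was 0. No HOX gene lost the mark on day 3 against day 0 (0 of 23; 0.0175% of all genes). On day 10 against day 3, 0 of 1 gained it (0.147%) and 0 of 34 lost it (0.942%). On day 10 against day 0, 0 of 4 gained it (2.85%) and 0 of 23 lost it (0.00876%). These are calls by rule: with 2 libraries against 2, a two-sided exact permutation test cannot go below p = 0.333, so no gene was tested alone.

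**Figure D1:**
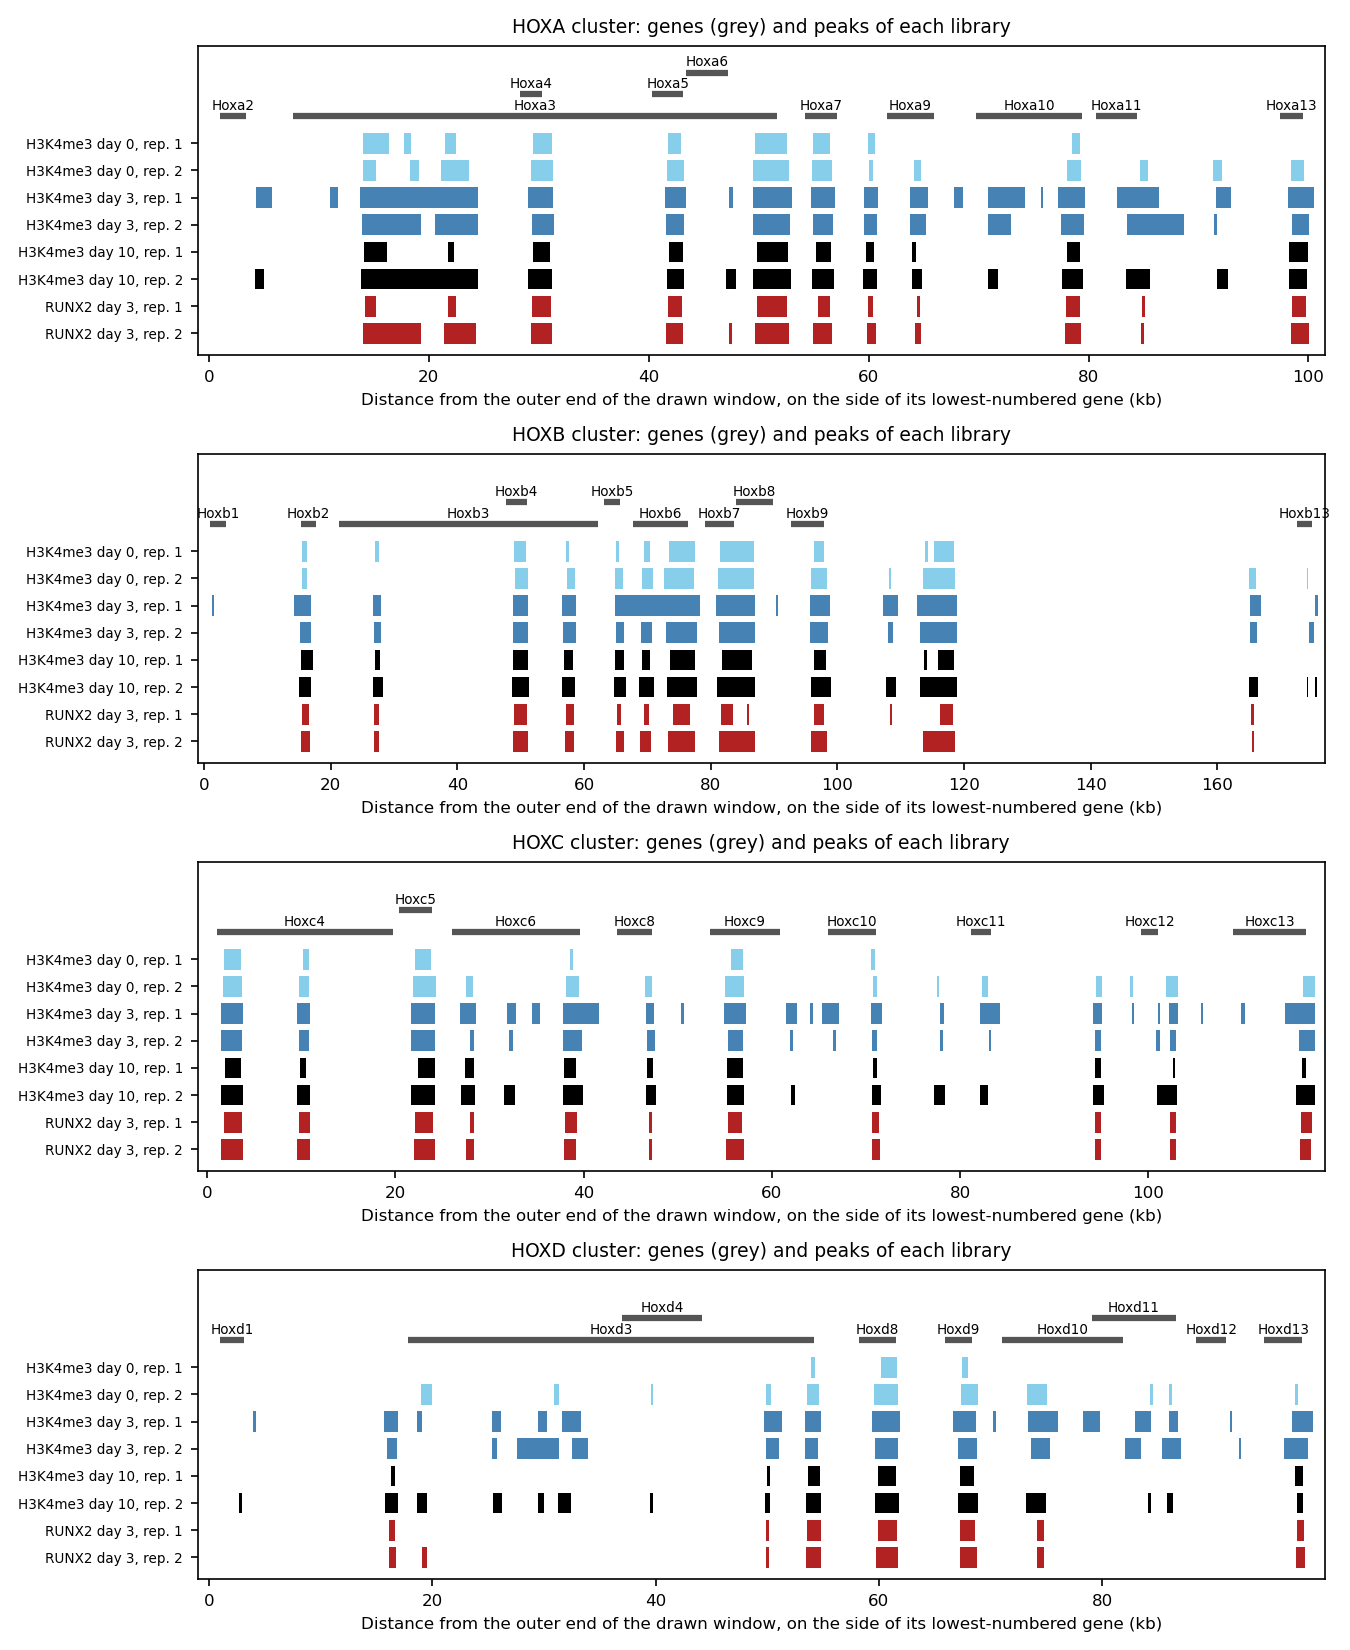
Peaks of each library (rows, joined where at most 1 kb apart) along the 4 HOX clusters, as distance in kb from the end of the drawn window that holds its lowest-numbered gene; grey bars are gene spans, and HOXA is drawn from Hoxa2 onward. Blocks over the central genes recur in all 6 H3K4me3 libraries, the blocks at groups 11 to 13 are missing in replicate 1 of day 0, and 46.0 kb between Hoxb9 and Hoxb13 hold no H3K4me3 peak.

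In HOXA, on chromosome 6 (coordinates here are GRCm38), Hoxa3, Hoxa4, Hoxa5, Hoxa6, Hoxa7 and Hoxa10 were marked on all days, Hoxa9 on days 3 and 10, and Hoxa2 on none. Of the HOXA regions, 9 were found in all 6 libraries. Hoxa2, which specifies the second pharyngeal arch, had no peak on day 0, 127 bp in 1 library on day 3 and 204 bp in 1 library on day 10. Hoxa3, active in pharyngeal organs, has the longest span in the cluster and contains Hoxa4, Hoxa5 and Hoxa6, so their windows share peaks. Hoxa6 met the rule only through the Hoxa5 block, chr6:52202915-52204851, which reaches its 1 kb extension and not its span. The region at its own start, chr6:52208469-52209331, had H3K4me3 in 0 libraries of day 0, 1 of day 3 and 1 of day 10. Hoxa3 was covered over 8570 and 9932 bp on day 0, 18389 and 15934 bp on day 3, and 7816 and 17619 bp on day 10. Both day 3 values were above both day 0 values, while the day 10 libraries lay on either side of the day 0 pair.

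The posterior HOXA genes act in limb and urogenital patterning, and Hoxa13 in the digits. Hoxa9 had 0 and 608 bp under peaks on day 0, 1770 and 1550 bp on day 3, and 353 and 1005 bp on day 10. Hoxa10 had 740 and 1270 bp on day 0, 5088 and 3610 bp on day 3, and 1160 and 2815 bp on day 10. Day 3 did not overlap the other days for either gene. Hoxa11 had 0 and 724 bp on day 0, 2512 and 1884 bp on day 3, and 0 and 1117 bp on day 10. Hoxa13 had 0 and 1140 bp on day 0, 1903 and 1625 bp on day 3, and 1461 and 1685 bp on day 10, so that its day 10 values overlapped day 3 and lay above both day 0 values. Within Hoxa10, a second block at chr6:52232249-52233841 appeared in both day 3 libraries and 1 of day 10 and in neither of day 0.

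HOXB (chr11:96194316-96368254) was marked without a break in the series of genes from Hoxb2 to Hoxb9, and each of these 8 genes had a peak in all 6 libraries. Hoxb4, which has been used to expand blood stem cells, was covered over 1836 and 2159 bp on day 0, 2382 and 2321 bp on day 3, and 2304 and 2671 bp on day 10. Hoxb7 and Hoxb8 share 1 region of 6171 bp, chr11:96282211-96288381, found in all 6 libraries and covered over 4450 and 5679 bp on day 0, 6088 and 5557 bp on day 3, and 4688 and 6047 bp on day 10. The libraries of the 3 days overlap there. Hoxb1, a hindbrain gene, had 214 bp in 1 day 3 library and nothing elsewhere. Hoxb13, expressed in the tail bud and prostate, had 0 and 270 bp on day 0, 442 and 597 bp on day 3, and 0 and 481 bp on day 10. Its day 3 libraries shared no region: replicate 1 had chr11:96193316-96193803, and replicate 2 had chr11:96194001-96194382 and chr11:96194529-96194743. The day 0 peak lay in another region, chr11:96194882-96195151. The longest stretch without any H3K4me3 peak in the 4 clusters, 46.0 kb at chr11:96204250-96250286, separates Hoxb13 from the rest of HOXB.

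HOXC (chr15:102921131-103036856) lacks groups 1 to 3 and 7, and its marked stretch was made of short blocks. Hoxc4, Hoxc5, Hoxc6, Hoxc9 and Hoxc10 were marked in all 6 libraries. Hoxc9, which acts in thoracic and motor neuron identity, was covered over 1271 and 2024 bp on day 0, 2673 and 1604 bp on day 3, and 1696 and 1788 bp on day 10, with all days overlapping. Hoxc10, a hindlimb-level gene, had 456 and 466 bp on day 0, 2381 and 889 bp on day 3, and 521 and 1053 bp on day 10. Hoxc13, a regulator of hair keratins, had 0 and 1073 bp on day 0, 2485 and 1565 bp on day 3, and 427 and 1780 bp on day 10. Hoxc11 had 0 and 650 bp on day 0, 1342 and 215 bp on day 3, and 0 and 855 bp on day 10. The day 3 libraries shared a block at chr15:102954449-102954850, over 402 and 215 bp, that no other day had, and the neighbouring block, chr15:102954874-102955732, was called in 1 library of each day.

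HOXD (chr2:74668225-74765142) had the smallest covered length on every day and only Hoxd3, Hoxd8 and Hoxd9 marked in all 6 libraries. Hoxd8, a trunk-level gene, was covered over 924 and 2106 bp on day 0, 2478 and 2092 bp on day 3, and 1665 and 2149 bp on day 10. Hoxd10 had 0 and 1416 bp on day 0, 3607 and 1905 bp on day 3, and 0 and 1536 bp on day 10. Hoxd11, which shapes the radius and ulna together with Hoxa11, had 0 and 580 bp on day 0, 2773 and 1825 bp on day 3, and 0 and 723 bp on day 10. For both genes day 3 lay above every library of the other days, but their spans overlap and their windows share peaks. Hoxd13, a digit gene, had 0 and 225 bp on day 0, 1436 and 1694 bp on day 3, and 693 and 539 bp on day 10, and its 3 days did not overlap. Hoxd1, Hoxd4 and Hoxd12 were not marked on any day, although Hoxd4 lies inside the span of Hoxd3. Hoxd12 had 214 bp in 1 day 3 library and no other peak.

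The contrast within HOXD can be read at promoters. The 250 bases before the transcript start of 6 HOXD genes are shown because they span starts touched in all, some or none of the H3K4me3 libraries. Sequences are from RefSeq on GRCm38.p6, chromosome 2, plus strand, 5′ to 3′. Capitals mark the RUNX core searched, TGTGGT or TGCGGT on either strand (ACCACA or ACCGCA as read here).
Hoxd13: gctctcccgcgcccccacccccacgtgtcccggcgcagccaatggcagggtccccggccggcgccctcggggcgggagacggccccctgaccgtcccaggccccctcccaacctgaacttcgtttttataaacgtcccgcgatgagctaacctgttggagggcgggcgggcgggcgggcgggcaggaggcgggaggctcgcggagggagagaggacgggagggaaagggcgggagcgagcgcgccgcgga
Hoxd12: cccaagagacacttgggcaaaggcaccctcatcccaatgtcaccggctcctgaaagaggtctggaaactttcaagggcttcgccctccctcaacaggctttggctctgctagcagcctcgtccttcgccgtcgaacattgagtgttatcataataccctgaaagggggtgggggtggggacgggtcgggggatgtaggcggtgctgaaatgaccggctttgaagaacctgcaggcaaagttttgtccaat
Hoxd10: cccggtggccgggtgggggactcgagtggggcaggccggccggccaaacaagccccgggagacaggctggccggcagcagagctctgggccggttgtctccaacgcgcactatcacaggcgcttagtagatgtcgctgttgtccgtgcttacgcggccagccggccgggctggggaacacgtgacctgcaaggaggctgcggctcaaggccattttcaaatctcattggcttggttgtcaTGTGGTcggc
Hoxd8: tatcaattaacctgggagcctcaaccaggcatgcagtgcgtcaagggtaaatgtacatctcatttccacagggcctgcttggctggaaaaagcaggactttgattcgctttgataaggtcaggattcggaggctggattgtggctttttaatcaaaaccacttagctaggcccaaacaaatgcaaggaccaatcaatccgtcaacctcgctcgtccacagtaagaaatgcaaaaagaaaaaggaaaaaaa
Hoxd3: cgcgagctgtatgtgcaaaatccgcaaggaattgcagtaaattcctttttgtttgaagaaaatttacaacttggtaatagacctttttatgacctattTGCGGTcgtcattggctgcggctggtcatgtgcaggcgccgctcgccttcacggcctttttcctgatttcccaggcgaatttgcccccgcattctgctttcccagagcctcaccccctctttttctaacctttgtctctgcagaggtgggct
Hoxd1: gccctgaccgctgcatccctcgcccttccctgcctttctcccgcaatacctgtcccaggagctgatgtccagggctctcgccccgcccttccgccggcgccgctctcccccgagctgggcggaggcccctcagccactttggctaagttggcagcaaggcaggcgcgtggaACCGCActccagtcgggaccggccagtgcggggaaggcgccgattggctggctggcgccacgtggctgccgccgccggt
Hoxd3 (chr2:74711743-74711992) and Hoxd8 (chr2:74704365-74704614) have promoter entries, of 300 bases ending 50 past the start, that were touched by H3K4me3 peaks of all 6 libraries and by RUNX2 in both day 3 libraries. The entries of Hoxd13 (chr2:74667975-74668224) and Hoxd10 (chr2:74691641-74691890) had H3K4me3 in 4 libraries each, and RUNX2 in both day 3 libraries. Hoxd13 lacked it in both day 0 libraries, and Hoxd10 lacked it in replicate 1 of days 0 and 10. Hoxd12 (chr2:74674763-74675012) and Hoxd1 (chr2:74762730-74762979) had no H3K4me3 or RUNX2 peak there in any library. CpG dinucleotides in the 300-base entries numbered 37 at Hoxd13, 13 at Hoxd12, 22 at Hoxd10, 6 at Hoxd8, 20 at Hoxd3 and 29 at Hoxd1, so the unmarked Hoxd1 entry held more CpG than the Hoxd8 entry marked on every day.

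Summed over the clusters, H3K4me3 peaks covered more on day 3 than on day 0 in every cluster, without overlap between libraries. All 4 clusters together had 40.6 and 69.1 kb under peaks on day 0, 126 and 95.4 kb on day 3, and 54.0 and 102 kb on day 10, so that day 10 overlapped both other days. HOXA had 14.2 and 19.0 kb on day 0, 41.0 and 32.7 kb on day 3, and 15.7 and 33.9 kb on day 10. HOXB had 18.6 and 26.4 kb on day 0, 40.1 and 31.7 kb on day 3, and 22.6 and 35.1 kb on day 10. HOXC had 5.95 and 14.9 kb on day 0, 25.9 and 16.0 kb on day 3, and 10.4 and 20.6 kb on day 10. HOXD had 1.92 and 8.84 kb on day 0, 19.0 and 15.0 kb on day 3, and 5.33 and 12.4 kb on day 10. HOXD had the lowest value of the clusters in every library.

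The mean log2 ratio of day 3 over day 0 was 2.04 (SE 1.12) in HOXD, 1.16 (SE 0.27) in HOXA, 1.12 (SE 0.75) in HOXC and 0.69 (SE 0.31) in HOXB, against 0.84 (SE 0.33) for all peaks of the genome, with 2 libraries a day. The order of the clusters rests on replicate 1 of day 0: without it the ratio was 0.93 in HOXD, 0.95 in HOXA, 0.45 in HOXC and 0.43 in HOXB. For day 10 over day 3 the ratios were -1.05 (SE 0.63) in HOXD, -0.67 (SE 0.58) in HOXA, -0.48 (SE 0.60) in HOXC and -0.34 (SE 0.36) in HOXB, against -0.42 (SE 0.48) for the genome. No cluster passed the permutation test: the two-sided exact permutation p was 0.333, the smallest this design allows, for each cluster on day 3 against day 0, with an adjusted p of 0.521 over 25 such tests. Of all covered bases, the HOX clusters held 0.279% and 0.325% in the day 0 libraries, 0.353% and 0.342% in those of day 3, and 0.311% and 0.319% in those of day 10. Scaled to each library's total covered bases, the HOXB ratio of day 3 over day 0 was -0.159, the opposite sign.

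**Figure D2:**
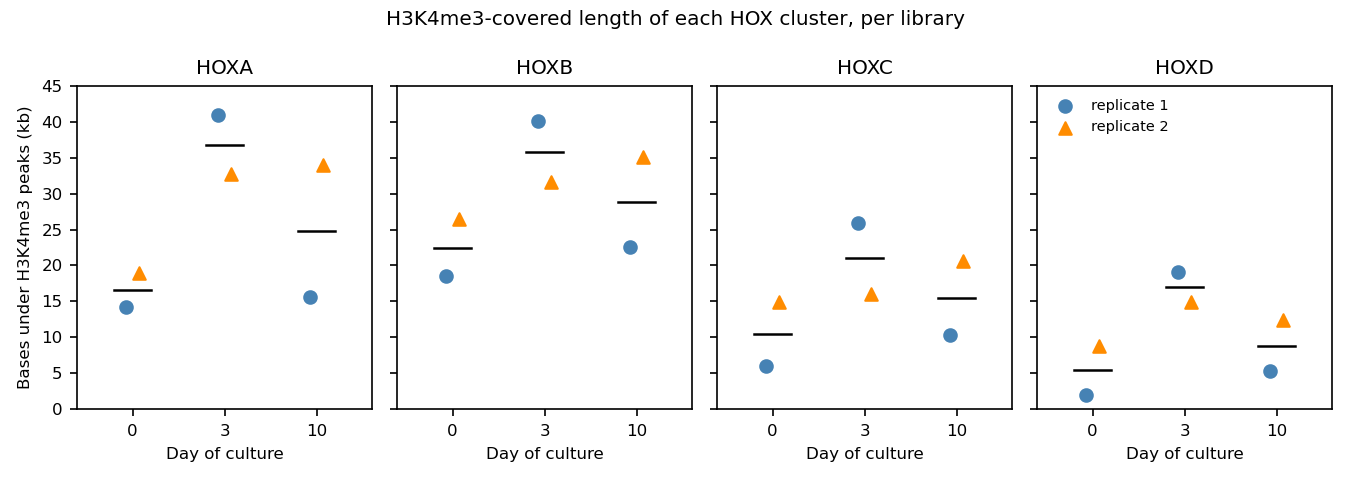
Length under H3K4me3 peaks in each HOX cluster (kb, vertical axis) by day of culture; points are libraries (circle, replicate 1; triangle, replicate 2) and bars the mean of 2. In each cluster both day 3 libraries lie above both day 0 libraries, and in HOXA they reach 41.0 and 32.7 kb.

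Gene by gene, 29 of 39 HOX windows had more covered bases in both libraries of day 3 than in both of day 0, beside 74.1% of all genes with a peak in these libraries, and none had fewer (0.0688%). On day 10 against day 3, 9 of 39 had fewer bases in both libraries (20.3% of all genes) and none had more (0.482%). The 9 were Hoxa5, Hoxa9, Hoxa10, Hoxa11, Hoxc5, Hoxd3, Hoxd10, Hoxd11 and Hoxd13. On day 10 against day 0, 10 of 37 had more (21.9% of all genes) and none fewer (0.42%). These shares lie near the background, and the counts moved with list length. With every H3K4me3 list cut to its 13765 best peaks, 16 windows had more bases on day 3 than on day 0, and 4 had fewer on day 10 than on day 3. With the 2 short lists, replicate 1 of day 0 and of day 10, left out together, 36 had more on day 10 than on day 0 and 10 had more on day 10 than on day 3.

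**Figure D3:**
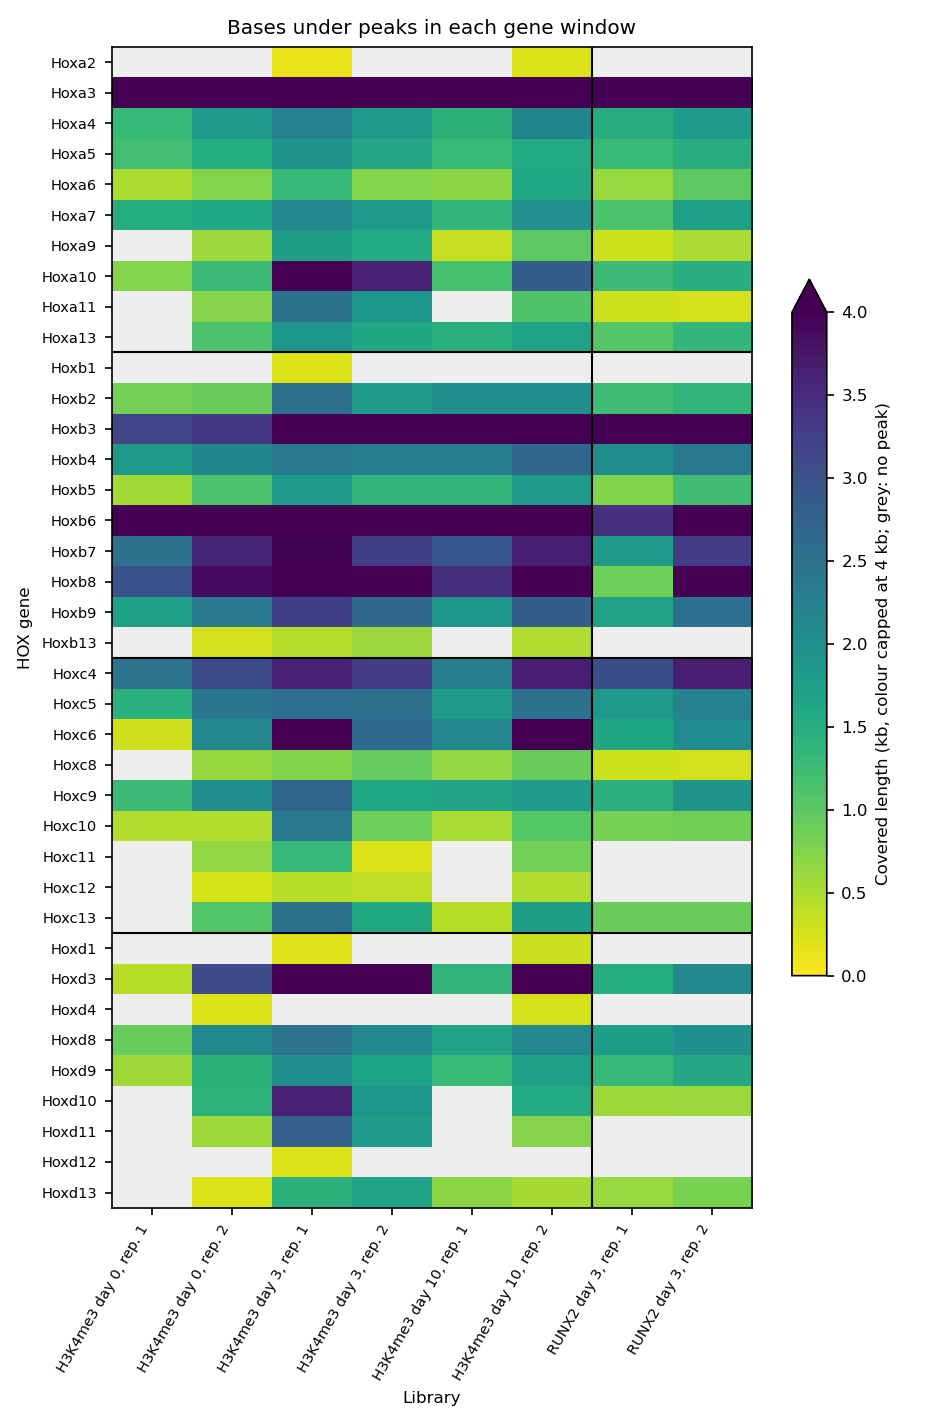
Bases under peaks in the windows of HOX genes (rows, by cluster and paralog group) in each H3K4me3 library and in the 2 RUNX2 libraries of day 3 (columns); colour is capped at 4 kb and grey means no peak. Hoxa2, Hoxb1, Hoxd1, Hoxd4 and the posterior genes Hoxa11, Hoxb13, Hoxc11, Hoxc12, Hoxd10, Hoxd11 and Hoxd12 are grey in replicate 1 of both day 0 and day 10, and RUNX2 is missing at all of these but Hoxa11 and Hoxd10.

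Peaks were joined into domains where at most 1 kb apart, and the widest HOX domains were in HOXB and HOXA. On day 0 the widest was the Hoxb7 and Hoxb8 domain, 5365 bp in replicate 1 and 5679 bp in replicate 2, placing it among the widest 0.275% and 0.658% of domains in those libraries. On day 3 replicate 1 had a domain of 13327 bp over Hoxb5 and Hoxb6 (widest 0.0728%), where replicate 2 had separate, shorter blocks. The widest in replicate 2 was 5829 bp at chr11:96250403-96256231, outside every HOX span, over an end of the lncRNA Gm53 (widest 0.574%). A domain inside Hoxa3 was 10685 bp in replicate 1 and 5446 bp in replicate 2 of day 3. On day 10 the Hoxb7 and Hoxb8 domain was 4808 bp in replicate 1, and the Hoxa3 domain was 10644 bp in replicate 2. The widest HOXC and HOXD domains of any library were 3794 and 3716 bp. The median HOX domain was 1073.5 and 1134 bp on day 0, 1472 and 1604 bp on day 3, and 1287 and 1524 bp on day 10, beside genome medians of 1148 to 1308.5 bp in the 6 libraries.

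Across the 6 libraries the H3K4me3 peaks of the clusters formed 118 regions. Of these, 27 were found in all 6 libraries (26.6% of H3K4me3 regions in the genome were), with a median width of 2431 bp: 9 in HOXA, 9 in HOXB, 6 in HOXC and 3 in HOXD. Another 51 were found in a single library (51.9% in the genome), with a median width of 286 bp. In 14 regions both day 3 libraries and neither day 0 library had a peak (7.35% of regions in the genome; median 805 bp): 2 in HOXA, none in HOXB, 6 in HOXC and 6 in HOXD. Of these 14, 1 was kept in both day 10 libraries (18.5% in the genome), 8 in 1 and 5 in neither. The one kept, chr2:74749183-74750473, lies at the lncRNA Haglr beside Hoxd3, with 0 bp in both libraries of day 0, 1291 and 898 bp on day 3, and 300 and 1041 bp on day 10.

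RUNX2 peaks were found in the HOX clusters on day 3 alone. On days 0 and 10 no HOX gene had a RUNX2 peak in either library, beside 0.0548% and 0.0503% of all genes in either library and 0.0274% and 0.0183% in both. On day 3, 30 of 39 HOX genes had one in both libraries (58.4% of all genes), and the same 30 genes had one in either library (59.8%). The covered length was 47.6 and 71.6 kb on day 3, against 0 kb in both libraries of day 0 and of day 10, with an exact permutation p of 0.333 for each contrast. The short RUNX2 lists of days 0 and 10, with 97 to 108 peaks genome-wide, move with this result, and their part in it was not tested.

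The 30 genes were among the 34 marked by H3K4me3 on day 3 (94.2% of all H3K4me3-marked genes had RUNX2). Hoxd4, the 1 HOX gene without H3K4me3 in either day 3 library, had no RUNX2 (0.254% of such genes did). By paralog group, RUNX2 was at 5 of 5 marked anterior genes, 14 of 14 central genes and 11 of 15 posterior genes. At Hoxa6 the RUNX2 call, like its H3K4me3 call, rests on the Hoxa5 block in its 1 kb extension. The 4 marked genes without it were Hoxb13, whose H3K4me3 peaks lay in different regions in the day 3 libraries, Hoxc11, Hoxc12 and Hoxd11. Of these, Hoxd11 had the most H3K4me3, 2773 and 1825 bp on day 3, part of it in peaks shared with the window of Hoxd10. Hoxd10, whose span overlaps that of Hoxd11, had RUNX2 over 593 and 608 bp. Hoxa11 had RUNX2 over 306 and 265 bp beside 2512 and 1884 bp of H3K4me3. At Hoxb4 the lengths were nearer to each other, 2033 and 2388 bp of RUNX2 beside 2382 and 2321 bp of H3K4me3.

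**Figure D4:**
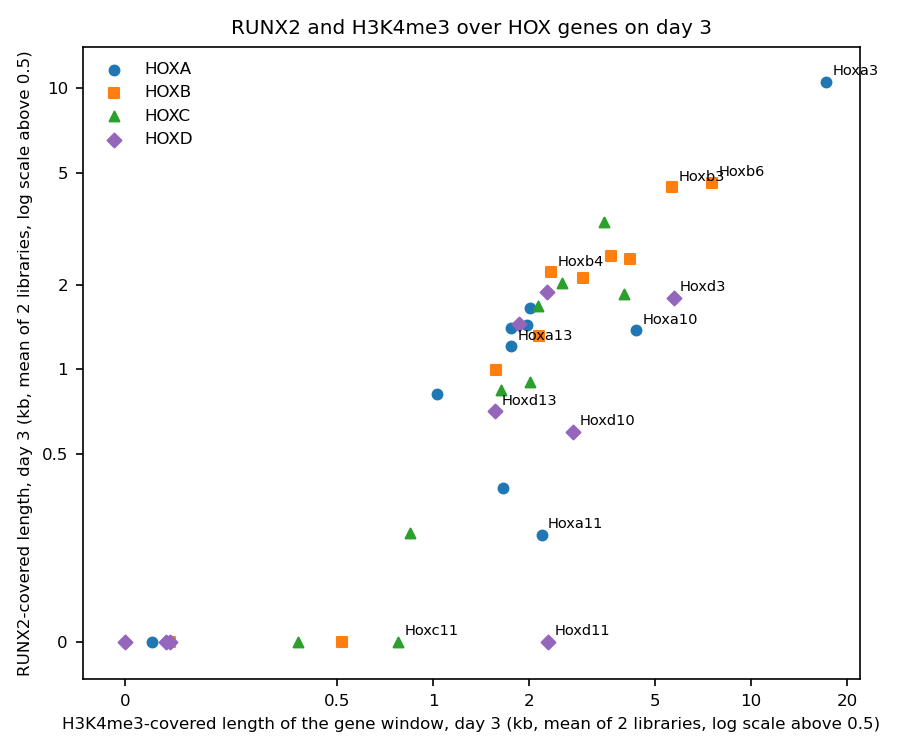
RUNX2-covered length (vertical axis) against H3K4me3-covered length (horizontal axis) of HOX gene windows on day 3, each the mean of 2 libraries in kb on an axis that is linear up to 0.5 and logarithmic above; colour and shape give the cluster. Hoxd11, Hoxa11 and Hoxd10 lie below the other genes of like H3K4me3 length.

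RUNX2 regions of day 3 lay almost wholly under H3K4me3. Peaks shared by both day 3 RUNX2 libraries formed 46 regions in the clusters, 15 in HOXA, 12 in HOXB, 12 in HOXC and 7 in HOXD, and all 46 touched H3K4me3 shared by both day 3 libraries, beside 97.6% in the genome. Of the RUNX2 bases, 97.4% were also under H3K4me3 (genome 96.1%). Of the H3K4me3 bases, 51.7% were under RUNX2 (genome 68.5%), and 45 of 72 H3K4me3 regions touched RUNX2, which is 62.5% (genome 74.6%). In HOXD it was 7 of 18. All 27 regions with H3K4me3 in all 6 libraries had RUNX2 in both day 3 libraries (99.8% of such regions in the genome), while none of the 51 single-library regions did (0.477%). Of the 14 regions with H3K4me3 in both day 3 libraries and neither day 0 library, the block at Haglr alone had it (27.5%). Width moves with these counts, as the median was 2431 bp for regions of 6 libraries and 286 bp for regions of 1, and its part was not tested.

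**Figure D5:**
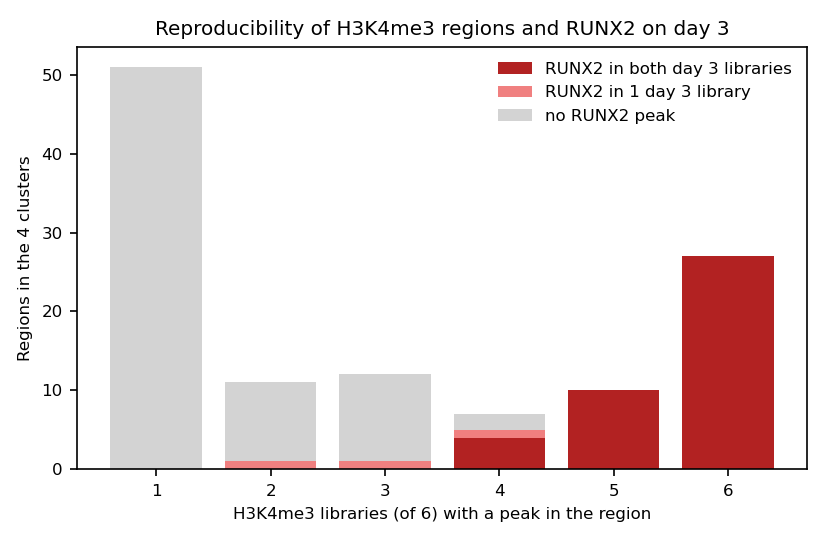
Number of H3K4me3 regions in the 4 clusters (vertical axis) by how many of the 6 H3K4me3 libraries had a peak there (horizontal axis), coloured by RUNX2 on day 3. All 27 regions of 6 libraries carry RUNX2 in both libraries and all 51 regions of 1 library carry none.

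The fold enrichment that the authors' peak caller gave to RUNX2 differed in scale between the 2 day 3 lists, so each was read within its own list. Among the regions shared by both libraries, the highest fold in replicate 2 was 16.1 at Hoxb4, where replicate 1 had 6.32. Hoxa7 had a fold of 15.8 in replicate 2, with only 3.65% of that list's peaks at least as significant by −log10 q, and 4.42 in replicate 1, with 35.1% at least as significant. Peaks low in both lists lay at posterior, central and anterior genes. Hoxd13 had folds of 3.83 and 5.10, with 91.6% and 88.2% of peaks at least as significant, and Hoxa11 had 3.87 and 4.50, with 90.6% and 89.9%. Hoxc8 had 87.4% and 94.5% of peaks at least as significant, and a second region in Hoxd3 had 91.1% and 90.8%. Other posterior genes ranked higher, with 25.1% and 13.4% at Hoxb9, 23.3% and 41.8% at Hoxa10 and 35.0% and 32.9% at Hoxc9.

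Promoter entries were matched for 22 of 39 HOX genes (24 entries). The RUNX core TGTGGT, searched on both strands, was found in 1 of 24 HOX entries (4.17%), against 16.8% of all 32851 entries, and TGCGGT in 2 (8.33%), against 6.45%. The TGTGGT match lay 10 bases before the start of Hoxd10, and the TGCGGT matches 152 bases before Hoxd3 and, on the other strand, 79 bases before Hoxd1. RUNX2 peaks of both day 3 libraries touched 9 of the 24 entries, and the share over all entries was not computed. Of these 9, 2 held either core (22.2%, against 22.4% of all entries), and 7 held neither. Hoxd1 holds a core and had no RUNX2 peak. The median CpG count was 14.5 in HOX entries, against 7 in all entries. Hoxa13 had the most of the HOX entries, 45, with H3K4me3 over it in 5 of 6 libraries and RUNX2 in both day 3 libraries.

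Peak summits were also set against annotated starts. The nearest H3K4me3 summit on day 3 was 231 and 498 bp downstream of the start of Hoxb4, and the nearest RUNX2 summit was 958 bp downstream in both libraries. At Hoxd13 the H3K4me3 summits were 28 and 138 bp downstream and the RUNX2 summits 100 and 95 bp downstream. At Hoxa7 they lay 1255 and 898 bp downstream for H3K4me3 and 1346 and 1347 bp for RUNX2, beyond the promoter entry, which no peak touched.

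The clusters also hold microRNA genes of the miR-10, miR-196 and miR-615 families, which are known to target HOX transcripts in the case of miR-10 and miR-196. Their mature sequences are shown because the copies in different clusters share a seed while their surroundings differed in H3K4me3. Sequences are from RefSeq, 5′ to 3′, with the seed (bases 2 to 8) in capitals.
miR-10a-5p: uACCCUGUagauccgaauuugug
miR-10b-5p: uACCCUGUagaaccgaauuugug
miR-196a-5p: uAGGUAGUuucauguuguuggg
miR-196b-5p: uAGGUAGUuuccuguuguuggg
miR-615-3p: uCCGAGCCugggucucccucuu
The miR-10 pair of HOXB and HOXD share 1 seed, and the miR-196 copies of HOXA, HOXB and HOXC share another. The Mir615 hairpin, in HOXC inside the Hoxc5 span, lay under H3K4me3 over its whole 92 bp in 5 of 6 libraries and under RUNX2 in both day 3 libraries. In replicate 1 of day 0 the nearest peak was 22 bp away. The hairpins of the other 5 genes lay under no H3K4me3 peak in any library. The nearest peak was 739 to 1164 bp from Mir10a in the 6 libraries, 207 to 13813 bp from Mir10b and 3101 to 6023 bp from Mir196a-1. Mir196b had a peak 71 bp away in replicate 1 of day 3 and 2083 to 8041 bp away in the other libraries, and Mir196a-2 had one 61 bp away in the same library and 1991 to 6226 bp away in the others.

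Of 25 long noncoding RNA genes inside the clusters, 14, 21 and 16 were marked in day order (0, 3 and 10), and the same 14 had a peak in all 6 libraries. Of all protein-coding genes, 52.2%, 61.6% and 56.8% were marked. The share over all lncRNA genes was not computed, so no day pattern particular to these genes can be read. Both-library counts of days 0 and 10 also depend on the short replicate 1 lists. Gm51876 and Gm14424 had no peak in any library. Hotair, in HOXC between Hoxc11 and Hoxc12, had 0 and 306 bp on day 0, 691 and 476 bp on day 3, and 435 and 648 bp on day 10, all in the 1 kb beside its span and none inside it. Hoxa11os, antisense to Hoxa11, had 0 and 724 bp on day 0, 3281 and 3451 bp on day 3, and 0 and 1326 bp on day 10. Peaks carry no strand, so the mark of a HOX gene and of an overlapping lncRNA cannot be told apart.

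Cofactors of HOX proteins and chromatin regulators of HOX genes were marked on every day. The TALE cofactors Pbx2, Pbx3, Pbx4, Meis1, Meis2, Meis3, Pknox1 and Pknox2, homeodomain partners of HOX proteins, each had H3K4me3 in all 6 libraries (51.9% of all genes) and RUNX2 in both day 3 libraries (58.4%). So did all 23 listed Trithorax and Polycomb genes, among them Kmt2a, Ezh2 and Bmi1. Of 16 axial, ParaHox and other HOX-linked genes, 1, 11 and 2 were marked on days 0, 3 and 10 (52.2%, 61.6% and 56.8% of all genes). The counts of days 0 and 10 rest on replicate 1, since 1 and 9 of the 16 had a peak in replicates 1 and 2 of day 0, 12 and 12 in those of day 3, and 2 and 12 in those of day 10. Of the 16, 4 had RUNX2 in both libraries of day 3 (58.4% of all genes). Gdf11, a signal of trunk-to-tail transition, was the gene marked on day 0 and had peaks in all 6 libraries. Rarb and Pdx1, of 7 genes that could, met the rule for gain on day 3 against day 0 (7.92% of all genes that could). Cdx1, Cdx4 and Meox1 had no peak in any library.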

How the data were processed

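Chromatin of ATDC5 cells was profiled with antibodies to H3K4me3 and RUNX2 on days 0, 3 and 10, with 2 libraries per antibody and day (12 peak lists). Input chromatin (2 libraries) and the protocol's antibody to SOX9 were not analysed here. Per the submitters' processing notes, reads of 75 bp went through FastQC, Trim Galore, HISAT2 2.2.0 and MACS2. The notes name GRCm39, but the deposited positions match GRCm38: 37.9% to 70.2% of H3K4me3 and day 3 RUNX2 summits lay near a gene end of the GRCm38.p6 table, against 6.12% to 7.98% after a shift of 20 kb. The authors deposited each list with peak start, end and summit, a score, a fold enrichment (ratio) and −log10 p and −log10 q values. No list goes below a −log10 q of about 1.30, and the control used in calling is not given in the sources used here. The fold and −log10 q values are the authors' own and served only to rank peaks within a list.

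From these lists, peaks were intersected with gene spans of RefSeq (GRCm38.p6) extended by 1 kb, with an overlap of at least 1 bp, using Python 3.11.15, numpy 2.4.6 and pandas 2.3.3. The intersection and calling steps were tested on simulated data. Depth is unknown, so no interval was computed. Covered bases of clusters were compared by two-sided exact permutation tests on log2 values, adjusted by Benjamini-Hochberg over 25 tests. All HOX genes were eligible to be named, with the annotated genes inside the clusters, the nearest flanking coding genes and 3 lists of related genes. Counts over the members include genes whose own values are not reported here. The members and lists were chosen with earlier results of these data known. Alternatives were stricter q, equal list lengths, other windows and overlaps, joining distances, left-out libraries and a replicate block.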

Additional observations from a re-analysis of the deposited data

How the results depend on the processing

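Peak lists limit these results: widths and calls follow the length of each list, no read depth is known, and the exact permutation test of 2 against 2 libraries cannot pass 0.05. Of 1865 recomputed values, 1703 stayed within the tolerance set for them, 153 moved past it and 9 changed sign. All 9 were log2 ratios of single clusters, and the cause was not tested. Calls of single genes made up 1414 of the 1865. Of the 211 values over all HOX genes or all clusters, 37 moved. Values from tests could leave their tolerance only by a change of sign, since no p here can pass 0.05. The count of HOX genes with H3K4me3 in both libraries of day 0 (23) was 35 with the 2 shortest lists left out, an alternative chosen after seeing the data, and 23 to 35 with 1 library left out. In windows around the transcript starts of the 22 genes with a promoter entry, also chosen after seeing the data, the counts were 10, 16 and 12 for H3K4me3 on days 0, 3 and 10, and 13 for RUNX2 on day 3 with or without H3K4me3, against 11, 17, 14 and 16 for the spans of these genes. The count gaining H3K4me3 on day 3 against day 0 (0) was 1 at a −log10 q of at least 5, with 2500 bp extension, by summits, with 200 bp overlap and at transcript starts, 2 with no extension, and 0 to 11 with 1 library left out. The loss count for that contrast was 1 with the 2 shortest lists left out and 0 to 1 with 1 library left out. On day 10 against day 3, gains were 1 with the 2 shortest lists left out and 0 to 1 with 1 left out, and losses were 1 at transcript starts and 0 to 6 with 1 left out. On day 10 against day 0, gains were 1 at the stricter q, 2 with the 2 shortest lists left out and 0 to 5 with 1 left out. Counts of windows with more bases were 16 (day 3 against day 0, equal list lengths), 36 (day 10 against day 0, 2 shortest left out), and, for day 10 against day 3, 1 with equal lengths, 1 with no extension and 10 with the 2 shortest left out. Counts with fewer were 4 (day 10 against day 3, equal lengths), 1 (day 3 against day 0) and 1 (day 10 against day 0), the last pair with the 2 shortest left out.

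The HOXB ratios scaled to each library's covered bases were -0.159 (day 3 against day 0), 0.0836 (day 10 against day 3) and -0.0754 (day 10 against day 0), against 0.69, -0.34 and 0.35. The HOXC ratio of day 10 over day 3 (-0.48) was 0.105 with equal lengths, 0.0143 with the 2 shortest left out and -0.974 to 0.0143 with 1 left out. With 1 library left out, ratios of day 10 over day 0 ran from -0.0654 to 1.05 in HOXA, -0.0255 to 1.296 in HOXC and -0.122 to 2.08 in HOXD. The mean width of the widest domain was 5522 bp on day 0, with 4412 bp unjoined and 8136.5 bp with 3 kb joining, and 9578 bp on day 3, with 25943.5 bp with 3 kb joining. The labels do not say whether a replicate number pairs libraries of different days. Same-numbered deviations correlated at 0.01, -0.05 and 0.31 for days 0 and 3, 3 and 10, and 0 and 10. Replicate 1 was the short list on both day 0 and day 10, and the part of list length in the 0.31 was not tested. With the replicate block, the log2 ratio over all 4 clusters for day 3 against day 0 stays 1.05 by arithmetic. The sign-flip test of 2 pairs cannot go below an exact p of 0.5.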

Other observations

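A block between Hoxa7 and Hoxa9, chr6:52220865-52222241, overlaps no HOX gene span, though it reaches the 1 kb beside Hoxa9, and had H3K4me3 peaks in all 6 libraries, over 673 and 392 bp on day 0, 1232 and 1154 bp on day 3, and 699 and 1277 bp on day 10. RUNX2 covered 388 and 814 bp of it on day 3. In HOXB, chr11:96250287-96256654 at Gm53 lies outside every HOX span and every HOX window, with 3592 and 5134 bp of H3K4me3 on day 0, 6247 and 5829 bp on day 3, and 3034 and 5962 bp on day 10. It had 2097 and 4979 bp of RUNX2 on day 3. Of the 118 H3K4me3 regions in the clusters, 21 lay outside all HOX windows.

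Of the nearest coding genes beyond the clusters, Skap2, Calcoco1, Smug1 and Mtx2 had H3K4me3 in all 6 libraries (51.9% of all genes). These also had RUNX2 in both libraries of day 3 (58.4%). The nearest coding genes on either side of HOXB met neither condition. Evx2, a homeobox gene 6.70 kb beyond Hoxd13, had 0 and 1014 bp of H3K4me3 on day 0, 1905 and 2264 bp on day 3, and 0 and 1532 bp on day 10. Evx1, which lies beyond Hoxa13, had 0 and 947 bp on day 0, 788 and 374 bp on day 3, and 0 and 906 bp on day 10. Neither had a RUNX2 peak on day 3.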
